A study of Mus musculus with 3 samples.

Results

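Muscle of tumour-bearing mice that had received FoxP1-shRNA was set against muscle of tumour-free mice, to ask what still differed from tumour-free muscle when FoxP1 was knocked down. The comparison takes 2 of the 3 arrays of the series, the array of C26 mice with AAV9-FoxP1-shRNA and the array of Sham mice with AAV9-scrambled-shRNA, and uses the log2 difference of each of 25206 genes. The remaining array, C26 mice with AAV9-scrambled-shRNA, is given beside them for orientation. Both tumour arrays are set against the same Sham array, so that a difference from Sham found on both does not count as independent agreement. RNA came from the tibialis anterior of 10-week-old male mice (strain CD2 in the labels, CD2F1 in the methods), harvested 26 days after inoculation, with the RNA of 3 mice pooled on each array. The tumour-bearing groups had been inoculated in both flanks with 500000 cells each of colon 26 (C26), a mouse adenocarcinoma line that causes wasting, whereas Sham mice had received saline. All 3 groups had been injected in the muscle with 1e+11 genomes of an adeno-associated virus of serotype 9 in 20 uL, 2 weeks before inoculation. The FoxP1-shRNA vector carries mCherry and the scrambled vector GFP, both with the short hairpin under a U6 promoter that is not specific to muscle cells. The tumour, the hairpin and the fluorescent marker therefore differ together between C26 FoxP1-shRNA and Sham muscle, and their parts cannot be told apart. Each group was 1 array of pooled RNA, so that no value carries an error, no test was possible, and how far mice of 1 group differ is unknown.

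FoxP1 is a forkhead transcription factor that mainly represses its targets. In cancer cachexia, muscle fibres lose protein through the ubiquitin-proteasome system and autophagy, which the FoxO transcription factors drive and which glucocorticoids and cytokines of the interleukin-6 family promote. Interferon-gamma, made by T cells and natural killer cells, induces antigen presentation and a family of immunity-related GTPases in many cell types, muscle included.

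Foxp1 itself, the target of the hairpin, had a log2 expression value of 6.52 with FoxP1-shRNA, 7.31 on the C26 scrambled-shRNA array and 6.41 in Sham. It was thus 1.08 times its Sham value in the knockdown muscle and 1.87 times on the other tumour array. All 10 markers of the skeletal muscle fibre lay above the range of the olfactory and vomeronasal receptor genes, which muscle does not use and whose 95th percentile was taken as the dim level (3.68 with FoxP1-shRNA, 3.83 with C26 scrambled-shRNA and 3.73 in Sham). Their summed linear expression (2 to the power of each log2 value, summed over the list) was 34022 with FoxP1-shRNA, 31541 with C26 scrambled-shRNA and 39712 in Sham. Array medians were 3.99, 4.05 and 4.06 in the same order. Genes with near-identical copies, such as Mt1 and Mt2, the Gbp genes and the H2 genes, may share probes, so that the value of each is uncertain.

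Of the gene lists examined, 23 of 32 interferon-stimulated genes and 15 of 17 antigen-presentation genes were 2-fold or more below tumour-free muscle in the knockdown muscle, and 12 of 20 glucocorticoid targets were 2-fold or more above it. Of genes of the fibre itself, 4 of 28 in calcium release and excitation-contraction coupling and 3 of 42 in the sarcomere were lower by that size. At a fixed size of 2-fold, 405 genes (1.61%) were 2-fold or more above Sham with FoxP1-shRNA and 548 (2.17%) stood 2-fold or more below it. On the C26 scrambled-shRNA array the same counts against the same Sham array were 843 (3.34%) and 1092 (4.33%). Of the genes past 2-fold with FoxP1-shRNA, 42.5% were higher, and this share was 50.7% after centring each array on its median and 28.7% after centring each array on 9 reference genes. Which direction held more genes thus depended on the scaling. The median log2 difference over all genes was -0.004. At any size, 12259 of the 25206 genes lay above Sham with FoxP1-shRNA and 12737 below it.

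**Figure D1:**
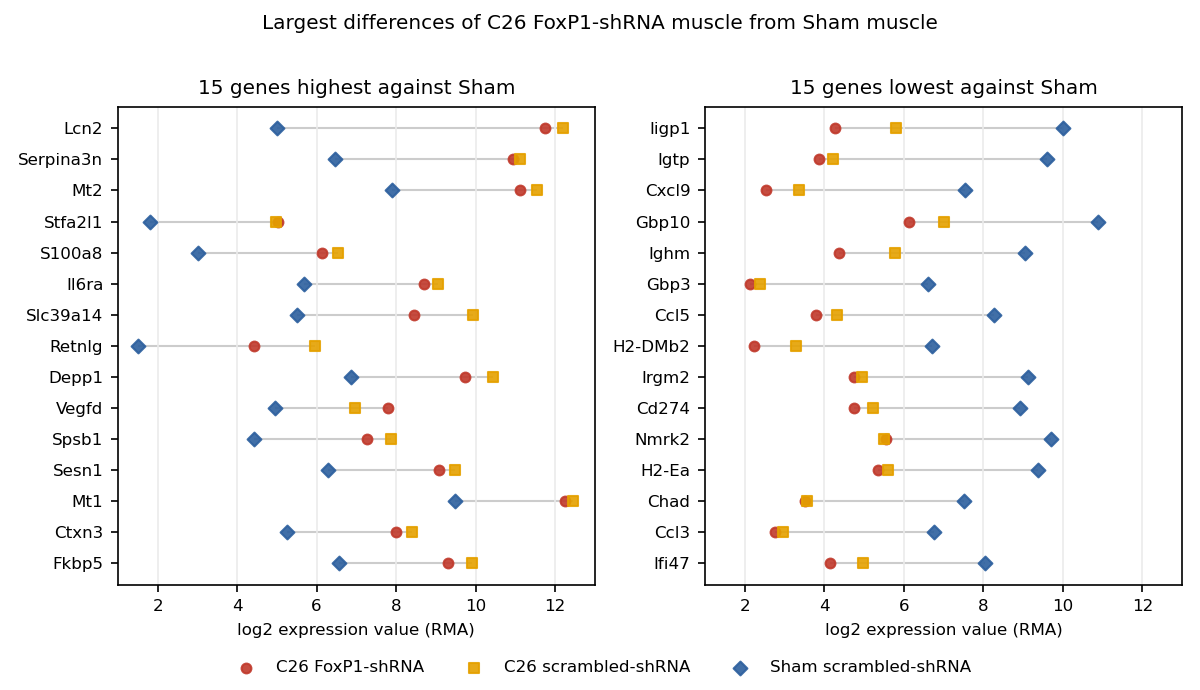
Log2 expression values (x axis) of the 15 genes highest and the 15 genes lowest with FoxP1-shRNA against Sham, among genes with an ordinary symbol above the array median on at least 1 of the 2 arrays. Each point is 1 array of RNA pooled from 3 mice, with no error. Lcn2 at the top of the left panel stands at 11.75 with FoxP1-shRNA against 5.01 in Sham, and Iigp1 at the top of the right panel at 4.27 against 10.00.

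GTPases and a chemokine that interferon-gamma induces were among the lowest genes. Iigp1, an immunity-related GTPase that attacks the vacuoles of intracellular parasites, had a log2 value of 4.27 with FoxP1-shRNA, 5.80 with C26 scrambled-shRNA and 10.00 in Sham, and was 53.2-fold lower with FoxP1-shRNA than in Sham. Igtp, a GTPase of the same family, had 3.87, 4.23 and 9.59 on the FoxP1-shRNA, C26 scrambled-shRNA and Sham arrays, 52.7-fold lower with FoxP1-shRNA than in Sham. Irgm2, which regulates the GTPases of this family, had 4.75, 4.95 and 9.13 in that order, and was 20.8-fold lower. On both tumour arrays these genes lay far under the Sham array, which both are set against. Cxcl9, a chemokine that draws activated T cells, had 2.54 with FoxP1-shRNA, 3.36 with C26 scrambled-shRNA and 7.55 in Sham, 32.2-fold lower with FoxP1-shRNA, and both tumour values lie within the dim level, so that the size of this fold is uncertain. Gbp3, a guanylate-binding protein, had 2.13 and 2.39 on the tumour arrays, also within the dim level, against 6.62 in Sham. Gbp10, a further guanylate-binding protein, had 6.14 with FoxP1-shRNA, 7.02 with C26 scrambled-shRNA and 10.89 in Sham, 27.0-fold lower with FoxP1-shRNA. Ifi47, an immunity-related GTPase, had 4.14, 4.97 and 8.04 on the same arrays and was 15-fold lower. The lowest of all genes, Gm12185 (2.18 with FoxP1-shRNA, 3.70 with C26 scrambled-shRNA and 9.16 in Sham) and Gm4841 (3.84, 5.20 and 10.80), have model names only and fall outside the rule for naming genes, so they were picked with their values known.

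Of 32 measured interferon-stimulated genes, 23 were 2-fold or more below Sham with FoxP1-shRNA and none 2-fold or more above it, against 2.17% and 1.61% of all genes. The list's median log2 difference was -1.62 with FoxP1-shRNA and -1.61 with C26 scrambled-shRNA. On the C26 scrambled-shRNA array 24 were 2-fold or more below Sham, against 4.33% of all genes. The summed linear expression of the list was 705 with FoxP1-shRNA, 735 with C26 scrambled-shRNA and 5249 in Sham. Transcription factors of the response were among the lower members. Irf1, which interferon-gamma induces, had 5.00 with FoxP1-shRNA, 4.92 with C26 scrambled-shRNA and 6.52 in Sham, and Stat2, a subunit of the factor that type I interferon activates, had 4.97, 4.93 and 6.58. Not every interferon-stimulated gene was lower. Oas1a, a sensor of double-stranded RNA, had 2.69 with FoxP1-shRNA, 2.63 with C26 scrambled-shRNA and 2.66 in Sham, within the dim level on all 3 arrays. Isg15, a ubiquitin-like protein, had 2.93, 2.54 and 2.99, also dim on all 3. Rsad2, an antiviral enzyme, had 5.87 with FoxP1-shRNA, 4.94 with C26 scrambled-shRNA and 5.32 in Sham, and was the member furthest above Sham at a log2 difference of 0.55.

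All 17 measured genes of MHC antigen presentation lay below Sham with FoxP1-shRNA, 15 of them by 2-fold or more, against 2.17% of all genes, and the list's median log2 difference was -1.68. With C26 scrambled-shRNA, 14 were lower by that size, against 4.33% of all genes, and the median was -1.40. Cd74, the invariant chain that escorts class II molecules, had 6.64 with FoxP1-shRNA, 6.82 with C26 scrambled-shRNA and 10.34 in Sham, 13-fold lower with FoxP1-shRNA than in Sham. H2-Aa, a class II chain, had 4.39, 4.44 and 8.08 on the same arrays, 12.9-fold lower, and H2-Ab1, its partner, had 5.61, 5.93 and 9.30, also 12.9-fold lower. Class I genes were lower by less. H2-D1, a class I heavy chain, had 8.27 with FoxP1-shRNA, 8.86 with C26 scrambled-shRNA and 10.27 in Sham, 4.0-fold lower, and B2m, the light chain of every class I molecule, had 9.62, 9.95 and 11.03. Tap1, which carries peptides to class I molecules, had 5.19, 5.54 and 7.60, 5.34-fold lower. Cd274, the checkpoint ligand PD-L1, had 4.74 with FoxP1-shRNA, 5.22 with C26 scrambled-shRNA and 8.91 in Sham, 18.0-fold lower with FoxP1-shRNA.

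Among the T cell markers, 7 of 10 measured stood 2-fold or more below Sham with FoxP1-shRNA, against 2.17% of all genes, with a median log2 difference of -1.52, and their summed linear expression was 104 with FoxP1-shRNA, 152 with C26 scrambled-shRNA and 385 in Sham. On the FoxP1-shRNA array 8 of the 10 lay within the dim level, against 1 in Sham. Trac, the constant part of the T cell receptor alpha chain, had 3.08 with FoxP1-shRNA, 3.58 with C26 scrambled-shRNA and 6.84 in Sham. Cd3e, a signalling chain of that receptor, had 3.26 with FoxP1-shRNA, 5.68 with C26 scrambled-shRNA and 6.09 in Sham, and the C26 scrambled-shRNA value lay near that of Sham. The T cell chemokine Ccl5 had 3.78, 4.33 and 8.26 and was 22.4-fold lower with FoxP1-shRNA, and the chemokine Ccl3 had 2.76, 2.96 and 6.76, within the dim level on both tumour arrays. Among 7 measured B cell markers only Ighm and Igkc were past 2-fold with FoxP1-shRNA, both below Sham, against 2.17% of all genes. They encode the constant regions of immunoglobulin M and of the kappa light chain. Ighm had 4.36 with FoxP1-shRNA, 5.79 with C26 scrambled-shRNA and 9.05 in Sham, 25.9-fold lower, and Igkc had 4.26, 7.01 and 7.87. The summed B cell list was 81.5 with FoxP1-shRNA, 229 with C26 scrambled-shRNA and 820 in Sham, while Cd79a, Cd79b, Pax5, Ms4a1 and Cd22 lay within the dim level on all 3 arrays. Of 11 macrophage and monocyte markers, 4 were 2-fold or more below Sham with FoxP1-shRNA (Ccr2, Fcgr1, Ms4a7 and Adgre1) and 1 (Lyve1) was above it by that size, against 2.17% and 1.61% of all genes. With C26 scrambled-shRNA 4 were lower and 3 higher by that size, against 4.33% and 3.34% of all genes. The summed macrophage list was 632 with FoxP1-shRNA, 1002 with C26 scrambled-shRNA and 766 in Sham. The part of lymphocyte and macrophage content in the lower interferon and antigen-presentation values was not tested, and in bulk muscle fewer cells of a type and less RNA per cell cannot be told apart.

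**Figure D2:**
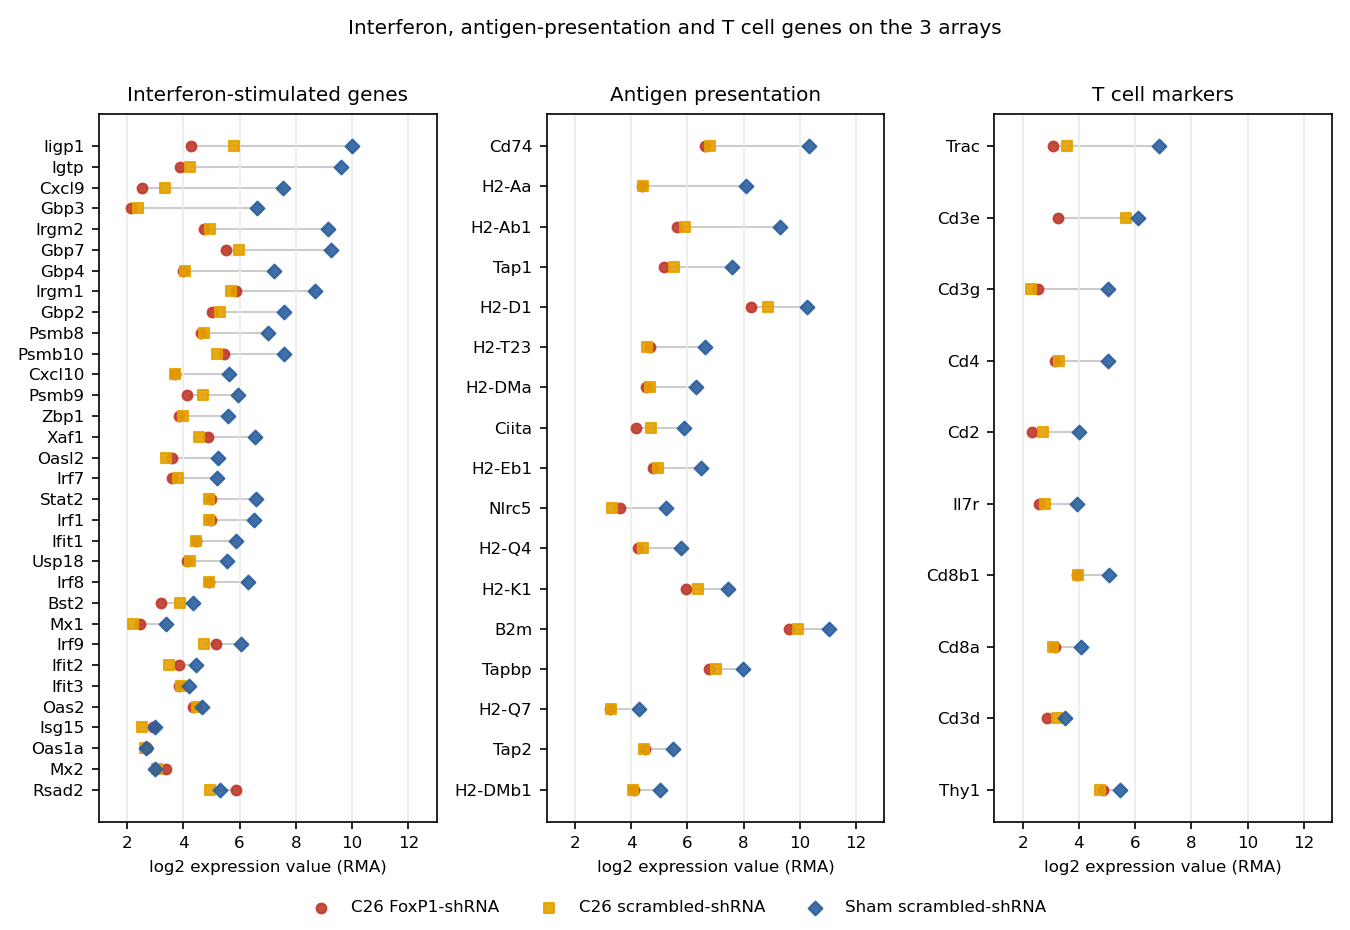
Log2 expression values (x axis) of all measured interferon-stimulated genes (32), genes of MHC antigen presentation (17) and T cell markers (10), each point 1 array of RNA pooled from 3 mice. In all 17 antigen-presentation genes and all 10 T cell markers the FoxP1-shRNA point lies below the Sham point, whereas Oas1a, Isg15 and Mx2 lie within the dim level on all 3 arrays.

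Stretches of promoter are shown for 6 interferon-responsive GTPase genes that were lower than in Sham and hold a match to the motifs below, for an antigen-presentation gene of each class, and for Socs3, a cytokine-induced gene that was higher. Each stretch covers the 160 bases before the RefSeq gene start (build GRCm38.p6), 5′ to 3′ in the direction of the gene, and belongs to the flank upstream of the first exon. In the first 6 and in Socs3, capitals mark GAAANNGAA, the core of the interferon-stimulated response element (ISRE), or TTCNNNGAA, the core of the gamma-activated site (GAS) that STAT factors bind. In B2m capitals mark GAAANNGAA and the CCAAT box, and in H2-Aa the CCAAT box, whose reverse complement reads ATTGG. Overlapping matches are joined. For Gbp3, which has 2 promoters, the printed one was chosen by its number of motif matches.
Igtp, chr11:58199396-58199555, plus strand: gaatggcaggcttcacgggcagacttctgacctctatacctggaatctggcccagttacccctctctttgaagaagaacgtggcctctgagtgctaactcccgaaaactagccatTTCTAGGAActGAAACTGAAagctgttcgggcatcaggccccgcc
Irgm2, chr11:58214817-58214976, plus strand: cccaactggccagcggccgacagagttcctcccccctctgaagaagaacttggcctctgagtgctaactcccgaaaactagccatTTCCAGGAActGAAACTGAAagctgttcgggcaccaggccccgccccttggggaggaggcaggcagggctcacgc
Irgm1, chr11:48871421-48871580, minus strand: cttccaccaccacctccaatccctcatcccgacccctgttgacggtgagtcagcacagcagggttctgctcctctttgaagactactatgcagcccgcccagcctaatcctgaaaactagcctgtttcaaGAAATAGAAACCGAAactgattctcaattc
Gbp3, chr3:142559884-142560043, plus strand: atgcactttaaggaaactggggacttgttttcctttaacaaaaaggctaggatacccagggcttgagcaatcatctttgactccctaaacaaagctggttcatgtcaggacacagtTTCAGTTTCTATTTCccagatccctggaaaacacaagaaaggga
Gbp7, chr3:142530176-142530335, plus strand: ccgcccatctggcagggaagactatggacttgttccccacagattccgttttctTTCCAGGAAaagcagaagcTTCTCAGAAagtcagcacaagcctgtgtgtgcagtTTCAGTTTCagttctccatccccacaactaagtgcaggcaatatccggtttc
Gbp2, chr3:142620503-142620662, plus strand: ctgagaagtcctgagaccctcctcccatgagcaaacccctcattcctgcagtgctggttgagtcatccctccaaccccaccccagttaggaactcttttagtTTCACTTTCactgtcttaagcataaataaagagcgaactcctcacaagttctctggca
B2m, chr2:122147527-122147686, plus strand: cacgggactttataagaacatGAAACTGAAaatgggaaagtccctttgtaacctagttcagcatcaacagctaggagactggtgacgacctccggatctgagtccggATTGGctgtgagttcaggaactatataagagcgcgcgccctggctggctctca
H2-Aa, chr17:34287824-34287983, minus strand: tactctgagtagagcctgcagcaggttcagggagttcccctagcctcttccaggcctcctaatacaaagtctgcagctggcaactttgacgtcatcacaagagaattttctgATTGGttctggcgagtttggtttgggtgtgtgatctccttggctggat
Socs3, chr11:117969367-117969526, minus strand: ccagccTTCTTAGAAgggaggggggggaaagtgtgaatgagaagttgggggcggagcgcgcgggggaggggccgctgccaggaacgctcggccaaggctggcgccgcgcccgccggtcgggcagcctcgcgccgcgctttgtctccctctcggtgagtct
All motifs were searched on both strands over the whole promoter, from 250 bases before to 50 after the start.

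Of the 32 interferon-stimulated genes, 25 had a promoter in the table, and 15 of these held the ISRE letters, which occur in 8.56% of all 32851 promoters and in promoters of 9.76% of all 27025 genes. The GAS letters occurred in 9 of the 25 genes, against 8.30% of all promoters and 9.55% of all genes. In Igtp the GAS match starts 45 bases before the gene start and the ISRE match 34 bases before it, and in Irgm2 the corresponding distances are 75 and 64 bases. The matches thus start 11 bases apart in each of these genes, whose values against Sham are given above. Gbp3 and Irgm1 each hold overlapping ISRE matches, and Gbp7 holds an ISRE match 52 bases before its start with GAS matches at 87 and 106 bases. Of the 17 antigen-presentation genes, 12 had a promoter in the table, and all 12 held CCAAT, a motif present in 37.4% of all promoters and in promoters of 41.1% of all genes. The ISRE letters occurred in 2 of these 12 genes and the GAS letters in none. Socs3, 6.15-fold higher with FoxP1-shRNA than in Sham, holds a GAS match 154 bases before its start. Of the interleukin-6 family, STAT3 and NF-kappaB genes, 21 had a promoter to search. The GAS letters occurred in 3 of these 21 genes (14.3%), against 9.55% of all genes, and the ISRE letters also in 3, against 9.76%. Of all promoters, 351 held both ISRE and GAS, and in 54 of these the matches overlapped. A match describes the letters only and is not a measured binding site.

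Further genes stood alike on both tumour arrays (the higher at most 25% above the lower) and far below Sham. Nmrk2, a muscle kinase that makes NAD from nicotinamide riboside, had 5.55 with FoxP1-shRNA, 5.51 with C26 scrambled-shRNA and 9.71 in Sham, 17.9-fold lower with FoxP1-shRNA than in Sham. It was the only 1 of 10 measured NAD genes past 2-fold with FoxP1-shRNA, against 2.17% of all genes lower by that size. Chad, a matrix protein of cartilage and tendon, had 3.52, 3.56 and 7.53, and Kera, a proteoglycan of tendon and cornea, had 3.49, 3.65 and 6.78. Tnmd, a defining membrane protein of tendon cells, had 3.31 with FoxP1-shRNA, 3.42 with C26 scrambled-shRNA and 5.96 in Sham. Chad, Kera and Tnmd all lay within the dim level on both tumour arrays, so that their likeness there and the size of their folds are uncertain. Of 6 tendon markers, 3 were 2-fold or more below Sham with FoxP1-shRNA, against 2.17% of all genes, and their summed linear expression was 260 with FoxP1-shRNA, 145 with C26 scrambled-shRNA and 845 in Sham. Scx, the tendon transcription factor, had 5.78 with FoxP1-shRNA, 4.70 with C26 scrambled-shRNA and 5.56 in Sham. It lay near Sham with FoxP1-shRNA and was 1.81-fold lower than Sham with C26 scrambled-shRNA.

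Of 25 measured collagens and matrix proteins, 10 were 2-fold or more below Sham with FoxP1-shRNA and 1 was above it by that size, against 2.17% and 1.61% of all genes, and the median log2 difference was -0.62. Under the 4 other scalings between 7 and 11 were lower by that size with FoxP1-shRNA. With C26 scrambled-shRNA, 10 were lower and 2 higher by that size, against 4.33% and 3.34% of all genes, and the median was -0.71. Col1a1, the main chain of collagen I, had 6.71 with FoxP1-shRNA, 6.20 with C26 scrambled-shRNA and 9.40 in Sham, 6.47-fold lower with FoxP1-shRNA, and Col1a2, its partner chain, had 6.47, 6.02 and 8.68, 4.60-fold lower. Lox, which cross-links collagen, was the member higher by 2-fold, with 7.19 with FoxP1-shRNA, 7.53 with C26 scrambled-shRNA and 5.71 in Sham. The basement membrane chains Col4a1 (6.58, 6.68 and 6.28) and Col4a2 (6.29, 6.55 and 6.27) were near Sham on both tumour arrays. The fibroblast marker list, which also contains Col1a1 and Col3a1, summed to 3034 with FoxP1-shRNA, 2621 with C26 scrambled-shRNA and 4618 in Sham, and the part of tendon and fibroblast content in the collagen values was not tested.

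Acute-phase and glucocorticoid-induced genes were among the highest genes. Lcn2, lipocalin-2, which binds bacterial iron carriers, had 11.75 with FoxP1-shRNA, 12.19 with C26 scrambled-shRNA and 5.01 in Sham, and was 106-fold higher with FoxP1-shRNA than in Sham. Serpina3n, a secreted protease inhibitor of the acute phase, had 10.95, 11.11 and 6.47, 22.2-fold higher. The metallothioneins Mt2 (11.13, 11.55 and 7.91) and Mt1 (12.25, 12.45 and 9.48), which bind zinc, were higher by 9.31-fold and 6.81-fold. Mt1 had the highest value of all genes on both tumour arrays, where the array's range leaves little room for a higher reading, so that the size of its fold is uncertain. Lcn2, Serpina3n, Mt2 and Mt1 differed far less between the tumour arrays than either array differed from Sham. Of 18 acute-phase genes, 7 were 2-fold or more above Sham with FoxP1-shRNA and none was below it by that size, against 1.61% and 2.17% of all genes, with a median log2 difference of 0.21, and 8 were dim on the FoxP1-shRNA array, among them the fibrinogen chains Fga, Fgb and Fgg, which hepatocytes make. Hp, haptoglobin, had 6.96 with FoxP1-shRNA, 7.17 with C26 scrambled-shRNA and 4.77 in Sham, and Lbp, which carries lipopolysaccharide, had 8.07, 8.31 and 6.49. Saa1, serum amyloid A, had 3.49 with FoxP1-shRNA, 5.94 with C26 scrambled-shRNA and 1.79 in Sham, so that the FoxP1-shRNA and Sham values were both dim.

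Of 11 measured neutrophil markers, 6 were 2-fold or more above Sham with FoxP1-shRNA and none was below it by that size, against 1.61% and 2.17% of all genes. Their summed linear expression was 304 with FoxP1-shRNA, 457 with C26 scrambled-shRNA and 101 in Sham. In Sham 9 of the 11 lay within the dim level, against 5 with FoxP1-shRNA and 4 with C26 scrambled-shRNA. Folds against the dim Sham values are uncertain in size. S100a8, a subunit of calprotectin, had 6.14 with FoxP1-shRNA, 6.55 with C26 scrambled-shRNA and a dim 3.01 in Sham. Retnlg, a resistin-like protein of neutrophils, had 4.43, 5.97 and a dim 1.5, and Cxcr2, their chemokine receptor, had 5.80, 5.79 and 3.97. Camp, Ltf and Ly6g lay within the dim level on all 3 arrays. Stfa2l1, of the stefin family of cathepsin inhibitors, had 5.02, 4.97 and 1.81, 9.25-fold higher with FoxP1-shRNA against a dim Sham value. Lcn2 is also made by neutrophils, and the part of neutrophil content in its value was not tested.

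Of 20 glucocorticoid targets, 12 were 2-fold or more above Sham with FoxP1-shRNA and none was below it by that size, against 1.61% and 2.17% of all genes, with a median log2 difference of 1.22. On the C26 scrambled-shRNA array 15 were higher by that size, against 3.34% of all genes, and the median was 1.48. Lcn2 and the metallothioneins are among these targets and also respond to cytokines. Fkbp5, a co-chaperone of the glucocorticoid receptor, had 9.31 with FoxP1-shRNA, 9.91 with C26 scrambled-shRNA and 6.57 in Sham, 6.67-fold higher with FoxP1-shRNA. Ddit4, an inhibitor of mTORC1, had 8.43, 9.27 and 5.73, 6.51-fold higher, and Glul, glutamine synthetase, had 10.72, 10.58 and 8.73, 3.98-fold higher. Klf15, which drives amino acid breakdown in muscle, had 7.43 with FoxP1-shRNA, 8.06 with C26 scrambled-shRNA and 5.62 in Sham, and Zbtb16, a direct receptor target, had 9.43, 9.66 and 8.18. Nr3c1, the receptor itself, was near Sham with 8.10, 8.15 and 8.40, as was Sgk1 with 8.84, 8.91 and 8.68. The size of the difference from Sham thus varied among the listed targets on both tumour arrays, and hormone or receptor activity was not measured here.

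**Figure D3:**
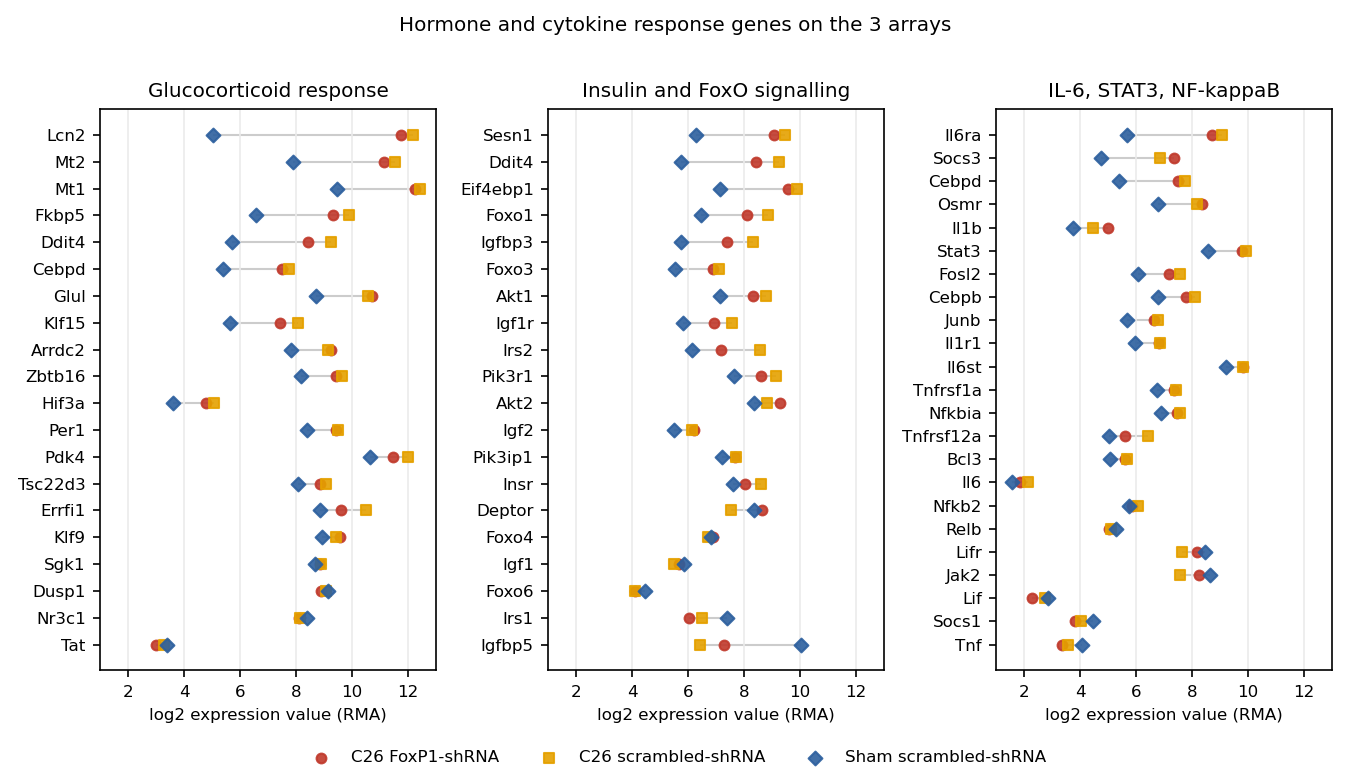
Log2 expression values (x axis) of all measured glucocorticoid targets (20), genes of insulin, IGF and FoxO signalling (20) and genes of the interleukin-6 family, STAT3 and NF-kappaB (23), each point 1 array of RNA pooled from 3 mice. Most members lie to the right of Sham with FoxP1-shRNA, with Igfbp5 (7.27, 6.42 and 10.03) and Irs1 (6.05, 6.48 and 7.39) as the members past 2-fold in the other direction with FoxP1-shRNA.

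Insulin, IGF and FoxO signalling showed 9 of 20 members 2-fold or more above Sham with FoxP1-shRNA and 2 below it by that size, against 1.61% and 2.17% of all genes, with a median log2 difference of 0.96. With C26 scrambled-shRNA 10 were higher and 1 lower by that size, against 3.34% and 4.33% of all genes, and the median was 1.23. Foxo1 had 8.12 with FoxP1-shRNA, 8.84 with C26 scrambled-shRNA and 6.46 in Sham, and was 3.17-fold higher with FoxP1-shRNA than in Sham, and Foxo3 had 6.90, 7.12 and 5.54. Sesn1, a FoxO and p53 target that restrains mTORC1, had 9.07, 9.48 and 6.29, 6.84-fold higher. Eif4ebp1, the repressor of cap-dependent translation, had 9.58 with FoxP1-shRNA, 9.90 with C26 scrambled-shRNA and 7.14 in Sham, 5.40-fold higher. Depp1, a FoxO target, had 9.73, 10.43 and 6.86, 7.30-fold higher. Igfbp5, an IGF-binding protein abundant in differentiating muscle, had 7.27, 6.42 and 10.03 and was 6.75-fold lower with FoxP1-shRNA, and Irs1, the insulin receptor substrate, had 6.05, 6.48 and 7.39. Foxo1 and Foxo3 were thus above Sham in the knockdown muscle by less than on the C26 scrambled-shRNA array.

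Of 18 measured atrophy ubiquitin ligases and ubiquitin genes, 3 were 2-fold or more above Sham with FoxP1-shRNA and none below it by that size, against 1.61% and 2.17% of all genes, while 9 lay above and 9 below Sham at any size and the median log2 difference was 0.02. Trim63, the ligase MuRF1 that degrades myosin, had 10.89 with FoxP1-shRNA, 11.57 with C26 scrambled-shRNA and 9.03 in Sham, 3.64-fold higher with FoxP1-shRNA than in Sham. Fbxo32, the ligase atrogin-1, had 11.20, 11.55 and 9.68, 2.86-fold higher, and Fbxo31, an F-box protein, had 9.89, 10.35 and 8.04, 3.60-fold higher. Of 29 proteasome subunits, 27 were above Sham at any size with FoxP1-shRNA, as were 12259 of all 25206 genes. By 2-fold or more, 2 of the 29 were higher, against 1.61% of all genes, and the median log2 difference was 0.36. With C26 scrambled-shRNA 7 were higher by that size, against 3.34% of all genes, and the median was 0.66. Of 26 autophagy and lysosome genes, 2 were likewise 2-fold or more above Sham with FoxP1-shRNA, against the same 1.61%, and the median was 0.46. With C26 scrambled-shRNA 7 were higher by that size, against the same 3.34%, and the median was 0.59. Ctsl, the lysosomal protease cathepsin L, had 9.17 with FoxP1-shRNA, 9.73 with C26 scrambled-shRNA and 7.34 in Sham, 3.56-fold higher. Gabarapl1, which builds autophagosomes, had 8.20, 9.56 and 6.63, 2.97-fold higher. Bnip3, a receptor for mitophagy, was just inside 2-fold with 8.36, 9.01 and 7.37, a log2 difference of 0.99.

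Of 23 genes of the interleukin-6 family, STAT3 and NF-kappaB, 7 were 2-fold or more above Sham with FoxP1-shRNA and none was below it by that size, against 1.61% and 2.17% of all genes, with a median log2 difference of 0.59. With C26 scrambled-shRNA 9 were higher and 1 lower by that size, against 3.34% and 4.33% of all genes, and the median was 0.69. Il6ra, the ligand-binding receptor of interleukin-6, had 8.71 with FoxP1-shRNA, 9.05 with C26 scrambled-shRNA and 5.67 in Sham, 8.20-fold higher with FoxP1-shRNA. Socs3, the feedback inhibitor of STAT3, had 7.35, 6.84 and 4.73, 6.15-fold higher, and Osmr, the oncostatin M receptor, had 8.37, 8.18 and 6.76, 3.04-fold higher. Both of these stood above the C26 scrambled-shRNA array. Stat3 had 9.79 with FoxP1-shRNA, 9.94 with C26 scrambled-shRNA and 8.56 in Sham, and Cebpd, a transcription factor that STAT3 induces, had 7.51, 7.76 and 5.39. Il6 itself lay within the dim level on all 3 arrays. Among metal genes, Slc39a14, a zinc importer that interleukin-6 induces, had 8.46 with FoxP1-shRNA, 9.92 with C26 scrambled-shRNA and 5.49 in Sham, 7.82-fold higher. Tfrc, the transferrin receptor that takes up iron, had 5.06, 4.69 and 7.91, 7.20-fold lower, and Hmox1, which breaks down haem, had 7.47, 6.97 and 5.02, 5.47-fold higher.

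Of 28 measured genes of calcium release and excitation-contraction coupling, 4 were 2-fold or more below Sham with FoxP1-shRNA and 2 above it by that size, against 2.17% and 1.61% of all genes, with a median log2 difference of -0.18. With C26 scrambled-shRNA 14 were lower and 2 higher by that size, against 4.33% and 3.34% of all genes, and the median was -1.02. The 4 lower genes were Mylk4, Casq1, Jph2 and Stac3. Mylk4, a muscle kinase related to those that phosphorylate myosin light chains, had 9.49 with FoxP1-shRNA, 6.24 with C26 scrambled-shRNA and 11.11 in Sham, lower by 3.08-fold with FoxP1-shRNA and by 29.3-fold with C26 scrambled-shRNA. Casq1, the calcium store protein of fast fibres, had 10.10, 7.16 and 11.48, 2.60-fold lower with FoxP1-shRNA against 20.1-fold lower with C26 scrambled-shRNA. Jph2, which joins the plasma membrane to the calcium store, had 7.10, 5.85 and 8.43, 2.50-fold against 5.98-fold lower. Their FoxP1-shRNA values thus fell between those of the other arrays. Casq2 with 7.23, 5.40 and 7.38 and Ryr1, the calcium release channel, with 10.89, 10.69 and 11.06 were within 2-fold of Sham with FoxP1-shRNA. Sln, sarcolipin, which inhibits the calcium pump, had 5.31 with FoxP1-shRNA, 4.83 with C26 scrambled-shRNA and 3.42 in Sham, 3.70-fold higher against a dim Sham value, and Tmem38b, a potassium channel of the calcium store, had 8.97, 8.69 and 7.56, 2.65-fold higher.

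**Figure D4:**
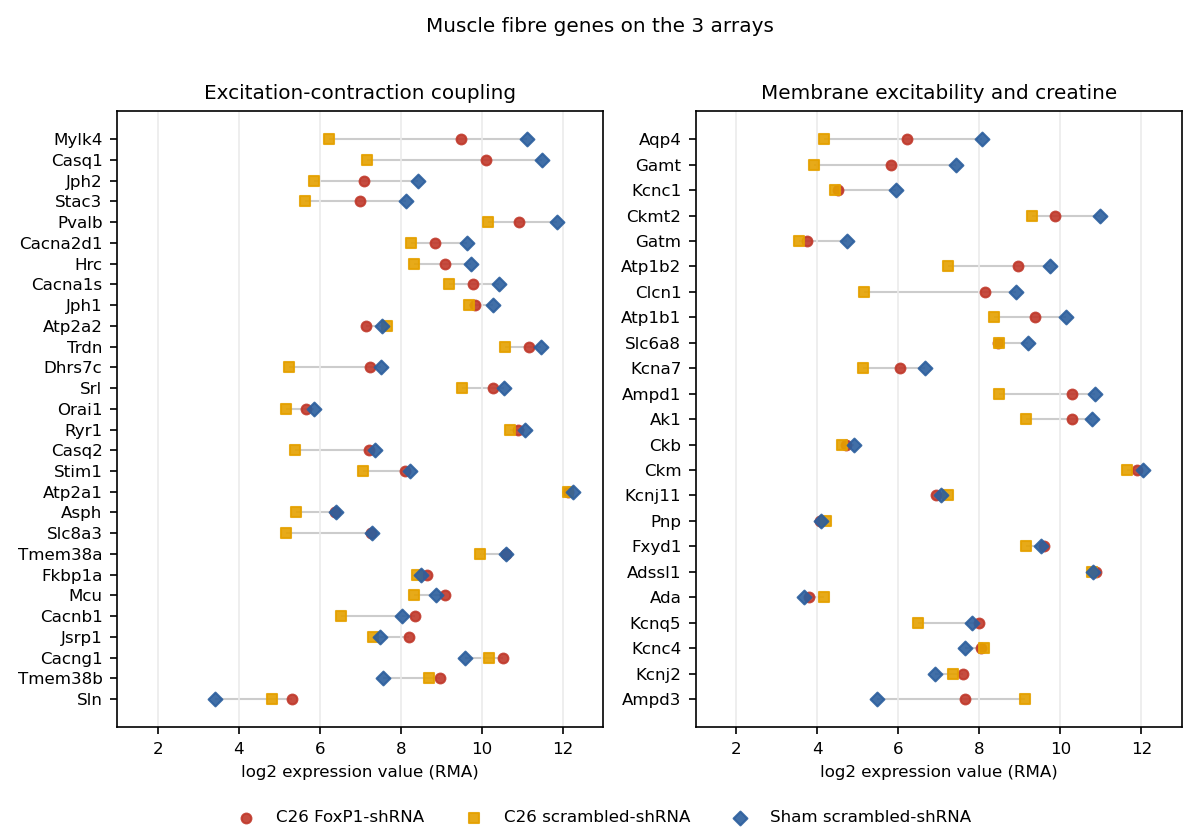
Log2 expression values (x axis) of all measured genes of calcium release and excitation-contraction coupling (28, left) and of the fibre membrane with creatine and adenine nucleotide enzymes (11 and 12, right), each point 1 array of RNA pooled from 3 mice. For Mylk4, Casq1, Jph2 and Clcn1 the FoxP1-shRNA point lies between the C26 scrambled-shRNA and Sham points, while for Cacng1, Tmem38b and Sln it lies above both.

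Channels and pumps of the fibre membrane had 2 of 11 members 2-fold or more below Sham with FoxP1-shRNA and none above it by that size, against 2.17% and 1.61% of all genes, and a median log2 difference of -0.63. With C26 scrambled-shRNA 7 were lower and none higher by that size, against 4.33% and 3.34% of all genes, and the median was -1.51. Aqp4, the water channel of fast fibres, had 6.22 with FoxP1-shRNA, 4.15 with C26 scrambled-shRNA and 8.06 in Sham, 3.60-fold lower with FoxP1-shRNA. Clcn1, the chloride channel that stabilises the resting membrane, had 8.13, 5.15 and 8.90, 1.70-fold lower with FoxP1-shRNA against 13.4-fold lower with C26 scrambled-shRNA. Kcnc1, a voltage-gated potassium channel, had 4.51, 4.44 and 5.94, so that both tumour arrays were alike. At the neuromuscular junction, Chrna1 and Chrnb1, subunits of the acetylcholine receptor, were above Sham on the FoxP1-shRNA array and below it on the C26 scrambled-shRNA array, with 7.60, 5.85 and 6.11 for Chrna1 and 7.86, 6.41 and 6.83 for Chrnb1. Chrna1 was 2.80-fold and Chrnb1 2.04-fold higher with FoxP1-shRNA than in Sham.

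Of 42 measured sarcomere genes, 3 were 2-fold or more below Sham with FoxP1-shRNA and 2 above it by that size, against 2.17% and 1.61% of all genes, with a median log2 difference of -0.24. With C26 scrambled-shRNA 10 were lower and 6 higher by that size, against 4.33% and 3.34% of all genes, and the median was -0.26. Actc1, cardiac actin, had 4.15 with FoxP1-shRNA, 4.10 with C26 scrambled-shRNA and 7.29 in Sham, 8.82-fold lower with FoxP1-shRNA. Ky, a peptidase-like protein of the Z-disc, had 5.49, 3.89 and 8.27, 6.87-fold lower against 20.8-fold lower with C26 scrambled-shRNA, and Myoz3, which binds calcineurin at the Z-disc, had 5.94, 5.03 and 7.85, 3.74-fold lower. Ky had the largest remaining difference of the genes that the study measured by PCR. Lmod3, which nucleates thin filaments, had 7.97, 5.28 and 8.49, 1.43-fold lower with FoxP1-shRNA, and Lmod2 had 10.39, 10.87 and 8.60, 3.46-fold higher. Ankrd2, a stretch-responsive repeat protein, had 9.24, 10.51 and 8.12 and was 2.17-fold higher. Acta1 (12.10, 12.07 and 12.32) and Myom2 (10.37, 10.31 and 10.34) were near Sham on both tumour arrays, as was the fast myosin Myh4 (12.16, 12.08 and 12.39). None of 9 myosin heavy chains was past 2-fold with FoxP1-shRNA, against 2.17% of all genes below Sham and 1.61% above it by that size. On each array 4 of the 9 lay within the dim level. The values of Acta1 and Myh4 are so close to the top of the array's range that they leave little room for a higher reading.

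Of 19 myogenic transcription factors and fusion genes, 2 were 2-fold or more below Sham with FoxP1-shRNA and none above it by that size, against 2.17% and 1.61% of all genes, with a median log2 difference of -0.12. Myod1, the muscle-determining factor, had 5.80 with FoxP1-shRNA, 5.99 with C26 scrambled-shRNA and 6.99 in Sham, lower by 2.29-fold with FoxP1-shRNA and by 2.01-fold with C26 scrambled-shRNA. Mef2c, which maintains sarcomere gene expression, had 9.58, 7.28 and 10.47, 1.85-fold lower with FoxP1-shRNA against 9.10-fold lower with C26 scrambled-shRNA, and it passed 2-fold with FoxP1-shRNA after centring on those 9 reference genes (log2 difference -1.01). Myod1 thus stood at a like level on both tumour arrays whereas Mef2c stood between the C26 scrambled-shRNA and Sham arrays. Atp1b2, a subunit of the sodium pump, had 8.95 with FoxP1-shRNA, 7.23 with C26 scrambled-shRNA and 9.74 in Sham. Among cell cycle inhibitors and p53 targets, 5 of 16 were 2-fold or more above Sham with FoxP1-shRNA and none below it by that size, against 1.61% and 2.17% of all genes. Cdkn1a, the inhibitor p21, had 9.29, 10.94 and 7.11, 4.55-fold higher with FoxP1-shRNA, and Gadd45a, which drives denervation atrophy in mice, had 7.88, 6.86 and 6.16, 3.28-fold higher.

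Genes of energy metabolism past 2-fold with FoxP1-shRNA are read against the 2.17% of all genes below Sham and the 1.61% above it by that size. Those past 2-fold with C26 scrambled-shRNA are read against 4.33% of all genes below Sham and 3.34% above it. Of 18 genes of glycogen metabolism and AMP-activated protein kinase, 4 were 2-fold or more below Sham with FoxP1-shRNA and none above it by that size, with a median log2 difference of -0.16, compared with 7, none and -0.26 with C26 scrambled-shRNA. They were Prkag3, a kinase subunit of glycolytic muscle (7.38 with FoxP1-shRNA, 5.49 with C26 scrambled-shRNA and 8.79 in Sham), the phosphorylase kinase subunits Phka1 (8.80, 8.23 and 10.14) and Phkg1 (8.71, 6.57 and 9.90), and Pgm1, phosphoglucomutase (9.08, 7.96 and 10.23). Of 17 glycolysis genes, Slc16a3, a lactate exporter (8.07, 7.37 and 9.20), and Pkm, pyruvate kinase (9.61, 9.21 and 10.64), were lower and Pgam1, phosphoglycerate mutase (5.59, 6.55 and 4.40), was higher. Of 33 complex I genes, 2 were 2-fold or more below Sham with FoxP1-shRNA, with a median log2 difference of -0.31, compared with 10 and -0.80 with C26 scrambled-shRNA. With FoxP1-shRNA 30 of the 33 lay below Sham at any size, as did 12737 of all 25206 genes. Of 30 genes of complexes III and IV and ATP synthase, 1 (Cox7a1) was lower by that size and the median was -0.36, compared with 5 and -0.69 with C26 scrambled-shRNA. Fatty acid oxidation and lipid handling had 2 of 27 genes 2-fold or more above Sham with FoxP1-shRNA and a median of 0.03, compared with 10 and 0.57 with C26 scrambled-shRNA. The 2 genes were Plin4, a lipid droplet protein, with 9.06 with FoxP1-shRNA, 9.63 with C26 scrambled-shRNA and 7.45 in Sham, and Acot1, a thioesterase, with 4.52, 8.09 and a dim 3.23. Angptl4, an inhibitor of lipoprotein lipase, had 4.98, 7.92 and 5.20, so that the FoxP1-shRNA value lay beside that of Sham. Of 12 creatine and adenine nucleotide genes, Ampd3, AMP deaminase, was higher with 7.65, 9.13 and 5.46 (4.56-fold), and Gamt and Ckmt2, which make creatine and its mitochondrial phosphate, were lower, with 5.81, 3.91 and 7.43 for Gamt and 9.87, 9.30 and 10.99 for Ckmt2. Against Sham, Gamt was lower by 3.06-fold and Ckmt2 by 2.18-fold with FoxP1-shRNA.

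**Figure D5:**
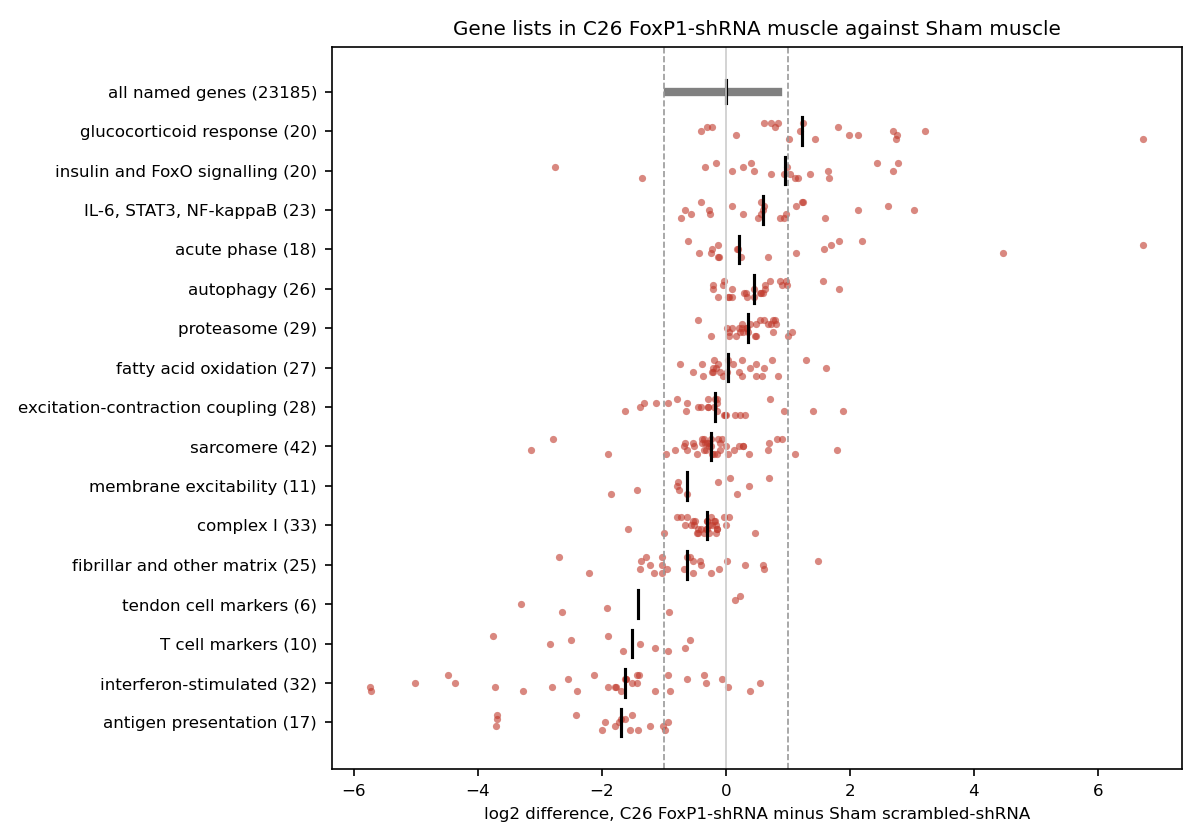
Log2 difference of C26 FoxP1-shRNA minus Sham scrambled-shRNA (x axis) for each measured gene of 16 lists, with the number of genes in brackets. Black ticks mark list medians, dashed lines mark 2-fold, and the grey bar in the top row spans the central 95% of all named genes. The medians run from 1.22 for glucocorticoid targets to -1.68 for antigen presentation.

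A small set of genes differed from Sham by 2-fold or more with FoxP1-shRNA while C26 scrambled-shRNA and Sham stood within 25% of each other. Among the 11409 genes eligible for naming there were 16, of which 15 were higher and 1 was lower. Stab2, a scavenger receptor of sinusoidal endothelium, had 6.42 with FoxP1-shRNA, 4.53 with C26 scrambled-shRNA and 4.42 in Sham, 4.0-fold higher with FoxP1-shRNA. Cep85l, a centrosomal protein, had 9.49, 7.95 and 7.65, 3.58-fold higher, and Atp9a, a lipid flippase, had 7.24, 5.65 and 5.72, 2.88-fold higher. Enox2 (7.29, 5.61 and 5.67), Tent5c (7.16, 5.86 and 5.63), Abca1, the cholesterol exporter (7.22, 6.21 and 5.98), and Retn, resistin (6.42, 5.22 and 5.22), followed, with Chrna1 as above. The lower gene was Slc41a3, of a family of magnesium carriers, with 6.40 with FoxP1-shRNA, 7.75 with C26 scrambled-shRNA and 8.05 in Sham, 3.14-fold lower. Mstn, myostatin, which limits muscle growth, had 9.32 with FoxP1-shRNA, 8.51 with C26 scrambled-shRNA and 8.12 in Sham, 2.30-fold higher with FoxP1-shRNA. It is not of this set, being 1.31-fold above Sham with C26 scrambled-shRNA. On the FoxP1-shRNA array 3 of 4 measured erythroid markers stood 2-fold or more above Sham, against 1.61% of all genes. Their summed linear expression was 435 with FoxP1-shRNA, 157 with C26 scrambled-shRNA and 143 in Sham. With C26 scrambled-shRNA 1 of the 4, Slc4a1, was also higher by that size, against 3.34% of all genes. Slc4a1 had 5.36, 4.78 and a dim 3.39. Alas2, the haem synthesis enzyme of red cells, had 7.98, 6.51 and 5.98. Hbb-b1 had 7.08, 5.14 and 5.99, and Hbb-bs was dim on all 3 arrays. The part of blood content in these genes was not tested.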

How the data were processed

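Pooled RNA from the tibialis anterior of each group was hybridized to 1 Mouse Gene 2.0 ST array, 3 arrays in all. The deposited log2 values were made by the authors with Robust Multiarray Average (RMA) (affy 1.36.1, R 2.15.1, as the submitters' processing notes name them), with an Entrez gene mapping (the paper's methods). The set of arrays normalized together is not given in the sources used here, nor is the genome build. The platform annotation paired 23185 of 25206 genes with 1 symbol, and 2021 are unnamed here. From these, log2 differences and folds came from Python 3.11.15, numpy 2.4.6 and pandas 2.3.3, with no filter on dim genes, and the computation was tested on simulated data. With 1 array per group there was no test, and precision is limited by the number of arrays.

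Counts used 2-fold. The 59 gene lists were written, and the comparison chosen, with earlier results of these data known, and 71 list names were not found. Named genes are the study's PCR panel, the 15 highest and 15 lowest among genes with an ordinary symbol above the array median on at least 1 array, up to 5 members per list by size, up to 8 per direction past 2-fold with FoxP1-shRNA only (the other tumour array within 25% of Sham), up to 6 past 2-fold in opposite directions, and 10 per direction alike on both tumour arrays. Other list members, the Gm genes and the genes of the promoter set were named after their values were seen, as were the motifs searched. Alternatives were 4 scalings (cyclic loess with limma 3.58.1 under R 4.3.3), 3 filters, sizes of 1.5-fold and 3-fold, and list means.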

Additional observations from a re-analysis of the deposited data

Results flagged for a closer look

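Among the genes eligible for naming, 2 lay past 2-fold against Sham in opposite directions on the tumour arrays. Eda2r, the receptor of ectodysplasin A2 and a gene that p53 induces, had a log2 value of 7.10 with FoxP1-shRNA, 4.03 with C26 scrambled-shRNA and 5.50 in Sham, that is, a log2 difference from Sham of 1.60 with FoxP1-shRNA and -1.47 with C26 scrambled-shRNA. Bmi1, a Polycomb protein that represses the Cdkn2a locus, had 5.98, 3.92 and 4.97, with log2 differences of 1.01 and -1.05. With 1 array per group the difference between the tumour arrays was not tested, and Bmi1 was inside 2-fold with FoxP1-shRNA after centring on the reference genes (0.88).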

How the results depend on the processing

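The counts of genes at or above and at or below 2-fold stayed within 1.5 times their values under the 4 other scalings (290 to 472 higher and 459 to 721 lower) and the 3 filters (329 to 361 higher and 473 to 490 lower). The size of the fold set them more: at 1.5-fold 1453 genes were higher and 1613 lower, and at 3-fold 99 were higher and 178 lower. Centring on the 9 reference genes moved the median log2 difference of all genes by -0.12, and every list median with it. No list median of at least 0.25 in size changed sign under the scalings, the mean or the filter, and of 304 named genes none changed sign when past 2-fold. Under the scalings, between 5 and 14 named genes moved inside 2-fold and between 2 and 11 moved past it. No paired analysis was possible because each group has 1 array. The precision is limited by pooled RNA with no replicate, and folds against values within the dim level are uncertain.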

Other observations

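Circadian clock genes differed from Sham in both directions. Of 18 measured, 3 stood 2-fold or more above Sham with FoxP1-shRNA and 2 below it by that size, against 1.61% and 2.17% of all genes. With C26 scrambled-shRNA 6 stood above and 4 below it by that size, against 3.34% and 4.33% of all genes. Bhlhe41, a repressor of the clock, had a log2 value of 6.45 with FoxP1-shRNA, 4.73 with C26 scrambled-shRNA and 8.20 in Sham, Dbp, an output factor, had 8.27, 5.54 and 9.38, and Nfil3, which opposes Dbp, had 7.25, 8.37 and 5.73. Arntl, the activator BMAL1, had 5.57, 8.33 and 6.19. The hour of each harvest is unknown here.

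Heat shock genes Hspa1b (4.32 with FoxP1-shRNA, 4.43 with C26 scrambled-shRNA and 7.21 in Sham) and Hspa1a (5.68, 6.41 and 7.92), near-identical copies, were the 2 of 18 heat shock genes past 2-fold with FoxP1-shRNA, 7.42-fold and 4.72-fold lower, against 2.17% of all genes lower by that size. Of 21 cell cycle and DNA replication genes, 3 stood 2-fold or more below Sham with FoxP1-shRNA (Mki67, Ccnd2 and Top2a), against 2.17% of all genes, and 11 lay within the dim level on that array against 6 in Sham. Of 30 ribosome biogenesis genes, 27 lay above Sham at any size with FoxP1-shRNA, as did 12259 of all 25206 genes. The list's median log2 difference was 0.36. Only Myc, with 6.98, 7.16 and 5.84, was above Sham by 2-fold or more, against 1.61% of all genes. Frzb, a secreted Wnt antagonist, had 5.39 with FoxP1-shRNA, 3.24 with C26 scrambled-shRNA and 7.83 in Sham. Among amino acid genes, Slc7a2, a carrier of basic amino acids, was higher (8.77, 8.55 and 6.95) and Smox, which oxidises spermine, was lower (6.76, 6.64 and 8.70).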
